A study of Mus musculus with 15 samples.

Results

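The genes of the cytosolic ribosomal proteins were examined in liver RNA from mice with and without a hepatocyte-directed Cre virus against Gata4. Members were the protein coding genes whose symbol has the form Rpl or Rps and a number, together with Rplp0, Rplp1, Rplp2 and Rpsa, and without the Rps6k kinases. This rule found 81 of the 24965 genes in the authors' deposited table, of which 32 encode proteins of the small (40S) subunit, 46 proteins of the large (60S) subunit and 3 the P stalk of the large subunit. No member's symbol stood on more than 1 row. Fau, which encodes a ribosomal protein fused to a ubiquitin-like protein, falls outside the rule by its name. Rps4l falls outside it because the table classes it as a transcribed pseudogene.

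All mice were male C57BL/6J of 9 weeks with floxed Gata4 alleles (Gata4 fl/fl), and each was injected at 8 weeks with AAV8, an adeno-associated virus that infects liver, 7 days before the liver was taken. The virus was AAV8-Tbg-Cre, in which the Tbg promoter drives Cre in hepatocytes (labelled knockout), or an empty AAV8 (control), so that Cre itself and the loss of Gata4 cannot be told apart. Mice were fasted for 12 h, or fasted for 12 h and refed for 12 h on a diet with 69% sucrose and 10% fat. Of the fasted livers 4 were control and 4 knockout, and of the refed livers 4 were control and 3 knockout. The titles within a group share a number of unstated meaning, so that a shared cage, litter or day would coincide with the group. Only 1 table of results was analysed here, with 1 mean over the 15 libraries and 1 log2 fold change per gene and no value per liver. Its genes with a single read fitted 2 readings equally well, knockout minus control among fasted livers or refed minus fasted among control livers. The first was taken because the table is named for genotype, and every direction below rests on that choice.

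A ribosome is built from ribosomal RNA and a fixed set of proteins that are needed in equal numbers, and the messages of these proteins are among the most abundant in most cells. They begin with a C followed by a run of pyrimidines, the 5' terminal oligopyrimidine (TOP) motif, through which mTOR and the RNA-binding protein LARP1 control how actively they are translated. In liver, feeding is known to raise and fasting to lower this translation while the messages are largely kept. The values here are levels of RNA and carry no measure of translation.

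The starts of a few member genes are shown because the TOP motif is the feature by which the family is known. Each window holds 20 bases before and 20 bases from the annotated RefSeq start in GRCm38.p6, on the strand of the gene. Capitals mark the longest run of C and T around the start, where such a run was found. The annotated starts in the first 5 windows begin with C and at least 4 further pyrimidines, and those in the last 2 do not. Rpl35a has 2 further annotated starts, and Rps27l and Rpl3l have 1 each, none of which begins so.
Rps6: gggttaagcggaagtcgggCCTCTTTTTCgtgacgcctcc
Rps27: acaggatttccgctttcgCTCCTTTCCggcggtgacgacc
Rplp2: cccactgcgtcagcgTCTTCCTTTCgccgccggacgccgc
Rpl38: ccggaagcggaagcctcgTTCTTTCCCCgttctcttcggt
Rpl35a: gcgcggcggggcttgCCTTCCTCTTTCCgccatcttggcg
Rps27l: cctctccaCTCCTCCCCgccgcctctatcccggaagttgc
Rpl3l: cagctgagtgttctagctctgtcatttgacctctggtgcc
These windows lie at chr4:86857348-86857387 (minus strand) for Rps6, chr3:90213629-90213668 (minus) for Rps27, chr7:141447631-141447670 (plus) for Rplp2, chr11:114668560-114668599 (plus) for Rpl38, chr16:33056462-33056501 (plus) for Rpl35a, chr9:66946066-66946105 (plus) for Rps27l and chr17:24727806-24727845 (plus) for Rpl3l. In Rps27l the pyrimidine run ends before the annotated start, and Rpl3l, a paralog known from striated muscle, has no such run.

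RefSeq promoter windows, from 250 bases before to 50 after a start, were matched by symbol for 61 of the 81 members and numbered 73. A start with C and at least 4 further C or T was found in 13 of the 73 windows (17.81%), beside 2.51% of all 32851 windows. Some members have more than 1 window, and 13 of the 61 members (21.31%) had such a start. The count depends on the exact base annotated as the start. In Rpl7a and Rpl27a, for example, runs of 21 and 20 pyrimidines span an annotated start that is not C, and these were not counted. A run of at least 8 C or T within 30 bases before and 50 after the start was present in 52 of the 73 windows (71.23%), beside 29.0% of all windows. The letters CCGGAAG, bound by GABP and other ETS factors, were found on either strand in 27 windows (36.99%), beside 8.86% of all. GGGCGG, bound by SP1, was found in 58.9% beside 35.66%, and AAGATGG, the core of the YY1 motif, in 15.07% beside 6.34%. The full YY1 motif, which contains that core, was found in 0 of the 73 windows and in 0.63% of all. The TATA box letters TATAAA were in 8.22% of member windows beside 13.62% of all, and the E-box CACGTG, bound by MYC and its partners, in 10.96% beside 7.15%. Both strands were searched except for the TOP start and the pyrimidine run. These shares describe letters in the window and do not show binding.

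The labels and the cell types of the samples were checked first. Gata4 was not lower in livers labelled knockout, and the authors' deposited table gave it 326.9 normalized counts on average and a log2 change of 0.31 ± 0.15 (SE; adjusted p 0.361, DESeq2 Wald test). Which exons the floxed allele loses is not in the labels, and reads summed over a gene cannot test the loss of a part of it. The hepatocyte markers were abundant, from 17184 to 1107247 normalized counts in the authors' deposited table, with 0 of 6 called and 1 at an unadjusted p under 0.05. All 6 Kupffer cell markers had estimates below 0, from -0.50 to -0.12 in the authors' deposited table, with 0 called and 1 at an unadjusted p under 0.05. Of the red cell markers 1 of 5 fell, Alas2, by 0.41 ± 0.12 (SE) on the log2 scale in the authors' deposited table. Over all tested genes 1.6% were called lower. The 5 red cell estimates had a median of -0.03, with 2 above 0 and the highest at 0.30. Of the tested markers of lymphocytes (2), sinusoidal endothelium (6), stellate cells (6), cholangiocytes (4) and neutrophils (1), the authors' DESeq2 Wald test called 0, with 1, 2, 0, 0 and 0 of them at an unadjusted p under 0.05. By that test 2.19% of all tested genes were called and 11.4% had an unadjusted p under 0.05. In bulk liver, fewer cells of a type and less RNA per cell cannot be told apart, and the part of these cells in the ribosomal protein values was not tested.

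In fasted livers, no ribosomal protein gene was called between livers labelled knockout and control. In the authors' deposited table, 0 of 78 tested members had an adjusted p under 0.05 (DESeq2 Wald test, Benjamini-Hochberg), beside 2.19% of all 13335 tested genes. Of all tested genes 0.585% were called higher and 1.6% lower. At an unadjusted p under 0.05, 1 member passed, beside 11.4% of all tested genes. The members' median log2 change was 0.01 in the authors' deposited table, the same as over the whole table, with 44 members above 0 and 34 below.

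The estimates lay close to 0 and most had narrow intervals. In the authors' deposited table they ran from -0.12 to 0.32 on the log2 scale, and 72 of 78 were smaller than 0.1 in size, beside 45.59% of all tested genes. The exceptions were Rps27l, Rpl26, Rpl13a, Rpl30, Rps19 and Rpl35a. For 67 of 78 members (85.9%) the 95% interval, from the standard error and a normal distribution, lay within a 1.2-fold change in both directions, beside 24.1% of all tested genes. The intervals of the other 11 members, Rps27l, Rpl13a, Rpl30, Rpl27, Rpl39, Rpl26, Rpl34, Rpl36al, Rplp0, Rplp1 and Rpl35a, reached past that bound.

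**Figure D1:**
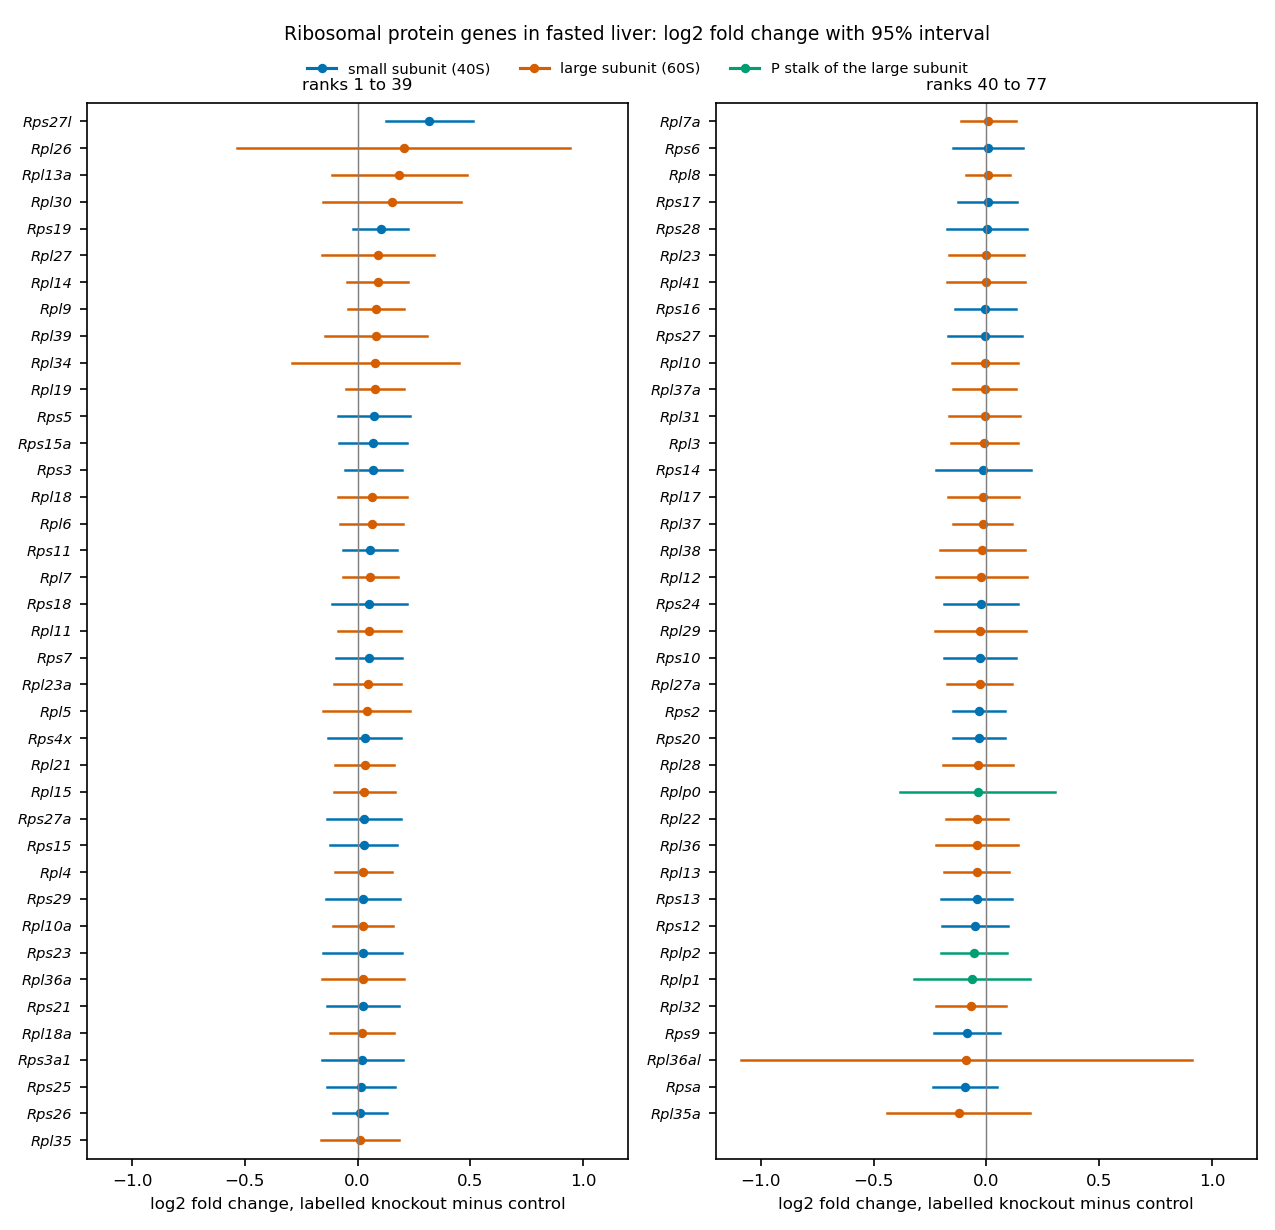
Log2 fold change (labelled knockout minus control, fasted livers) of 77 of the 78 tested ribosomal protein genes from the authors' deposited table, ordered by size in both panels. Points are estimates, bars are 95% intervals and colours mark the subunit. Only the interval of Rps27l lies to one side of 0.

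Members were next compared with genes in the same range of abundance, since a high count gives a small error. Among genes with a mean of 500 to 9000 normalized counts, the 71 members had a median standard error of 0.0763 and the 4155 tested genes one of 0.087. In that range the typical size of the log2 change, as a median, was 0.0323 for members and 0.0774 for the 4155 genes. The range is wide, and abundance within it was not matched between members and the other genes. Relative to tested genes within 1.25-fold of its own mean, 57 of 78 members had a standard error below the median. The size of the log2 change was not compared within this closer window. At the members' median standard error of 0.0783, the smallest Wald statistic that was called, 3.268, corresponds to a log2 fold change of 0.256, or 1.194-fold. A smaller change of a typical member would not have been called.

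**Figure D2:**
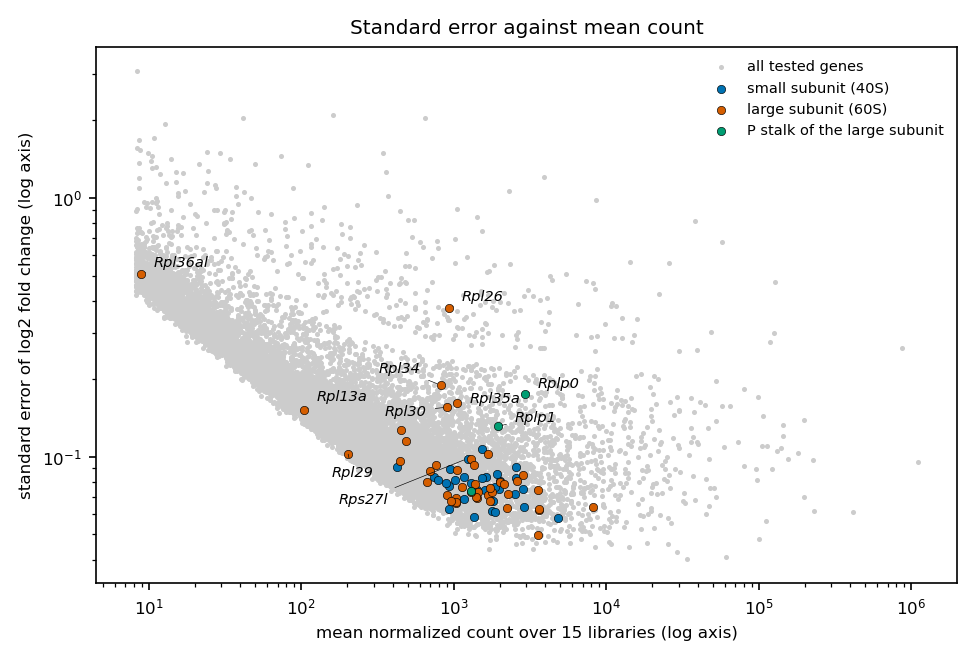
Standard error of the log2 fold change against the mean normalized count over 15 libraries, both on log axes, from the authors' deposited table. Grey points are all tested genes and coloured points are 77 of the 78 tested members by subunit. For 57 of 78 members the error is below the median of genes of like mean, and Rpl26, Rpl34, Rplp0, Rpl35a and Rpl30 lie above the other members of like mean.

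The 32 genes of the small subunit, which binds the message and reads its codons, had a median log2 fold change of 0.01 in the authors' deposited table, with 20 above 0 and 12 below. Rps6, whose protein is the classic substrate of the S6 kinases downstream of mTOR, was listed in the authors' deposited table with 1304 normalized counts on average and a log2 change of 0.01 ± 0.08 (SE). Rps2, the small subunit gene of highest mean at 4798 normalized counts, was listed in the authors' deposited table at a log2 change of -0.03 ± 0.06 (SE). Both intervals spanned 0 and stayed within 1.2-fold. The largest estimates after Rps27l were those of Rps19, a gene mutated in Diamond-Blackfan anaemia, at 0.10 ± 0.06 (SE), and of Rpsa, also known as the laminin receptor gene, at -0.10 ± 0.07 (SE) in the authors' deposited table. Rps9 was listed in the authors' deposited table at a log2 change of -0.09 ± 0.08 (SE). The authors' Wald test gave none of these genes an unadjusted p under 0.05, and the adjusted p (Benjamini-Hochberg) of Rps19 was 0.572.

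The 43 tested genes of the large subunit without its stalk had a median log2 fold change of 0.01 in the authors' deposited table, with 24 above 0 and 19 below. This subunit holds the peptidyl transferase centre and the tunnel through which the new chain leaves. Rpl4, whose protein reaches into that tunnel, had the highest mean of all members, 8178 normalized counts, and was listed in the authors' deposited table at a log2 change of 0.03 ± 0.06 (SE). Rpl8, near the catalytic centre, had the smallest standard error, and was listed in the authors' deposited table with 3597 normalized counts on average and a log2 change of 0.01 ± 0.05 (SE). Rpl7 and Rpl7a, at means of 3615 and 3602 normalized counts, were listed in the authors' deposited table at log2 changes of 0.06 ± 0.06 and 0.01 ± 0.06 (SE). All 4 intervals spanned 0. The highest Wald statistics in this subunit were those of Rpl9, at 0.08 ± 0.06 (SE), and Rpl14, at 0.09 ± 0.07 (SE) in the authors' deposited table. The lowest was that of Rpl32, at -0.07 ± 0.08 (SE) in the authors' deposited table.

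Some genes whose proteins surround the mouth of the exit tunnel, where new chains meet their processing factors, were read together. They were chosen after values were seen and are not the full set of that site. The authors' deposited table gave Rpl17 a log2 change of -0.01 ± 0.08, Rpl19 one of 0.08 ± 0.07, Rpl23a one of 0.04 ± 0.08, Rpl31 one of -0.01 ± 0.08 and Rpl35 one of 0.01 ± 0.09 (SE). Their means ran from 666 normalized counts for Rpl31 to 2597 for Rpl17, and all 5 intervals spanned 0 within 1.2-fold. Rpl26, of the same site, had a wide error and is described with the others of that kind. Rpl13a, whose protein also represses translation of inflammatory messages, was listed in the authors' deposited table with 104.2 normalized counts on average and a log2 change of 0.19 ± 0.15 (SE), and was not called.

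Members that have paralogs are given next, beside the paralog where it was tested. Rpl10, which joins late in assembly near the catalytic centre, was listed in the authors' deposited table with 3563 normalized counts on average and a log2 change of -0.01 ± 0.07 (SE). Rpl36a and its paralog Rpl36al, 87.74% identical in coding sequence, were at 0.02 ± 0.09 and -0.09 ± 0.51 (SE), the second with a mean of 8.97 normalized counts, in the authors' deposited table. Rpl22 and Rpl22l1, which can replace each other in the ribosome, were listed in the authors' deposited table at log2 changes of -0.04 ± 0.07 and -0.01 ± 0.11 (SE). Rps4x and the pseudogene Rps4l were at 0.03 ± 0.08 and 0.00 ± 0.21 (SE), and Rpl7l1, a relative of Rpl7, at 0.12 ± 0.08 (SE), in the authors' deposited table. Rps27a, a member without such a partner here, which makes a ribosomal protein fused to ubiquitin, was listed in the authors' deposited table at a log2 change of 0.03 ± 0.08 (SE).

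Rpl5 and Rpl11 bind the 5S ribosomal RNA and, when not built into ribosomes, are known to bind Mdm2 and so protect p53. Their means were 1300 and 1678 normalized counts, and the authors' deposited table gave log2 changes of 0.04 ± 0.10 and 0.05 ± 0.07 (SE). Both intervals spanned 0 and neither gene was called. The P stalk genes Rplp0, Rplp1 and Rplp2 encode the arm that recruits the elongation factors. The authors' deposited table gave them log2 changes of -0.04 ± 0.17, -0.06 ± 0.13 and -0.06 ± 0.07 (SE). All 3 estimates were below 0, each by less than its standard error.

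Rps27l was the member with the largest estimate and the only one with an unadjusted p under 0.05. It is a close paralog of Rps27, both encoding zinc finger proteins of the small subunit, and it is known as a transcriptional target of p53. The gene lies on chromosome 9, 66946086 to 66949516 (GRCm38, GENCODE vM21, plus strand), with 4 exons. Rps27l was listed in the authors' deposited table with 1234 normalized counts on average and a log2 change of 0.32 ± 0.10 (SE), which is 1.25-fold higher with a 95% interval of 1.09-fold to 1.42-fold. Its p in the authors' DESeq2 Wald test was 0.0012 and its adjusted p (Benjamini-Hochberg) 0.0548, so it did not pass the threshold. By p it stood at rank 303 among all tested genes, just behind the 292 that were called. Adjusted over genes of mean 100 or more its p was 0.0461, past the threshold, and adjusted over every gene with a p it was 0.102.

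Rps27, the parent gene, was listed in the authors' deposited table with 1530 normalized counts on average and a log2 change of -0.01 ± 0.08 (SE). The intervals of the 2 genes overlapped between 0.12 and 0.16, and the difference between them was not tested. Their coding sequences were identical at 76.19% of aligned positions. Rps27l has 5 annotated pseudogene copies, and the 3 of them in the table together had a mean of 1.22 normalized counts.

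The p53 list, which was chosen with its result in these data known, is given beside Rps27l for its values. In the authors' deposited table, 6 of its 19 tested genes rose, 0 fell and 13 did not pass (DESeq2 Wald test, Benjamini-Hochberg), beside 0.585% of all tested genes called higher and 1.6% lower. The list's median log2 change in the authors' deposited table was 0.35. Gdf15, a stress-induced hormone, rose by 2.26 ± 0.39 (SE) and Aen, a nuclease of apoptosis, by 0.88 ± 0.17 (SE) on the log2 scale in the authors' deposited table. Eda2r, a receptor gene of the TNF receptor family, rose by 2.17 ± 0.47 (SE) and Ccng1, which encodes cyclin G1, by 0.57 ± 0.15 (SE) on that scale in the authors' deposited table. Mdm2, the ubiquitin ligase that degrades p53, rose by 0.37 ± 0.10 (SE) in the authors' deposited table, a change of about the size of that in Rps27l. Trp53 itself, at -0.08 ± 0.10 (SE), and Cdkn1a, the p21 gene, at 0.97 ± 0.54 (SE), were not called in the authors' deposited table. With 1 estimate per gene, whether Rps27l followed these genes from liver to liver was not tested.

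**Figure D3:**
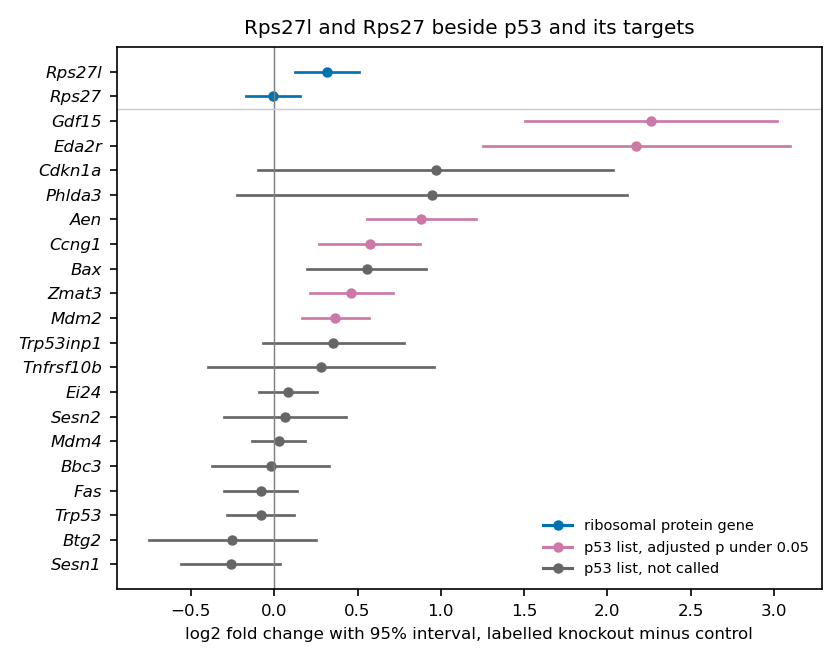
Log2 fold change with 95% interval (labelled knockout minus control, fasted livers) of Rps27l and Rps27 above the 19 tested genes of the p53 list, from the authors' deposited table. Colours mark the ribosomal protein genes, the 6 called list genes and the 13 that did not pass. The estimate of Rps27l, at 0.32, lies near that of Mdm2, at 0.37, and Rps27 lies at -0.01.

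A standard error above the 90th percentile of tested genes of like mean was found for 5 members, Rpl26, Rpl34, Rplp0, Rpl35a and Rpl30. Rpl26, whose protein sits at the mouth of the exit tunnel, was listed in the authors' deposited table with 931 normalized counts on average and a log2 change of 0.21 ± 0.38 (SE). Its interval ran from -0.53 to 0.94, the widest of any member with a mean of at least 100. Rpl34, at a mean of 827 normalized counts, was listed in the authors' deposited table at a log2 change of 0.08 ± 0.19 (SE). Rpl35a and Rpl30 were listed in the authors' deposited table at log2 changes of -0.12 ± 0.16 and 0.15 ± 0.16 (SE). All of these intervals spanned 0. Those of Rpl26, Rpl34 and Rplp0 reached past 1.2-fold in both directions, that of Rpl30 only upward and that of Rpl35a only downward.

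Ribosomal protein genes have many retrotransposed copies, and a read that fits a gene and its copy equally may be counted for either or for none. A BLAST search of annotated pseudogene transcripts, at 90% identity over 80% of the coding sequence, found 961 copies of 75 of the 81 members. The median was 8 copies per member, Rpl21 had the most with 76, and 580 of the copies were in the table. Of 13 copies with a mean of at least 40 normalized counts, 5 had a standard error above 0.5 in the authors' deposited table, and they were copies of Rpl26, Rpl34, Rplp0 and Rplp1. Gm15772, 99.5% identical to the Rpl26 coding sequence, was listed in the authors' deposited table with 343 normalized counts on average and a log2 change of -0.58 ± 1.49 (SE). Rpl34-ps1 stood at 41.7 normalized counts with a standard error of 2.04, and Gm8730, a copy of Rplp0, a mean of 184 normalized counts and a standard error of 1.41, in the authors' deposited table. For Gm8730 the authors' test gave an estimate but no p. Other copies had small errors: the authors' deposited table gave Rpsa-ps10 1014 normalized counts on average and a log2 change of -0.08 ± 0.08 (SE), and Rps24-ps3 a mean of 382 and 0.05 ± 0.11 (SE). For Rpl35a and Rpl30 the search found no copy with a mean of at least 40. How reads were shared between genes and copies is not given in the sources used here, and its part in the wide errors was not tested.

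Levels were compared per kilobase of transcript, as the mean normalized count over the 15 libraries divided by the length of 1 annotated transcript. Over the 77 members of mean 100 normalized counts or more, the median level was 1970.4 per kb, with quartiles at 1419.0 and 2925.4. The median level was 2571.7 per kb for the 32 small subunit genes and 1770.3 per kb for the 45 large subunit genes, stalk included. Rpl4 stood highest at 5318 per kb, followed by Rps2 at 4808, Rpl10 at 4459, Rps27 at 4434 and Rpl8 at 4226 per kb. Rps27l, at 2474 per kb, lay within the quartiles and below its parent. The order of neighbouring genes was not tested, since the table gives no spread of a mean over livers. The lowest of the 77 were Rpl13a at 99.5, Rpl29 at 348.7 and Rps20 at 368.0 per kb. The level of Rps20 depends on a transcript of 3706 bases, and that of Rpl13a was counted over exons of which 59.3% are shared on the same strand with another gene. Rpl29 has 58 pseudogene copies, and the 25 of them in the table had a summed mean of 85.4 normalized counts beside its own 203.3. The part of reads shared with copies in these levels was not tested. Together the 81 members held 0.724% of all normalized counts.

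**Figure D4:**
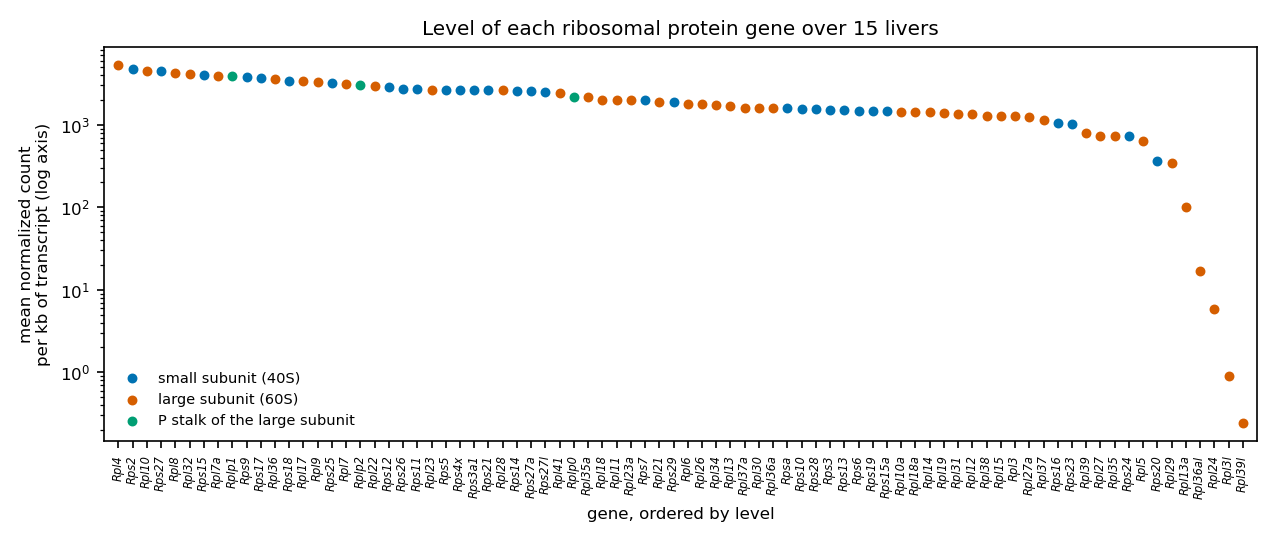
Mean normalized count per kilobase of transcript, on a log axis, for 80 of the 81 ribosomal protein genes in order of level. Points are means over 15 livers of all groups and colours mark the subunit. Between Rpl4 at 5318 and Rpl29 at 348.7 per kb the genes form a continuous series, and 5 genes lie below 100 per kb.

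The lowest members fell into separate kinds. Rpl24, Rpl3l and Rpl39l were not tested, with means of 3.94, 1.23 and 0.133 normalized counts in the authors' deposited table. Rpl24 is an ordinary member of the large subunit, and 71.5% of its exon bases are shared on the same strand with the annotated gene Gm28037. Rpl36al, the lowest tested member, shares 63.1% of its exon bases with Gm49383. Rps10, with 91.6% of its exon bases shared with a read-through gene, was not low, at a mean of 784 normalized counts in the authors' deposited table. How reads in shared exons were counted is not given in the sources used here, and the part of overlap in these levels was not tested. Rpl3l shared no exon with another gene, and its parent Rpl3 was listed in the authors' deposited table with 1718 normalized counts on average and a log2 change of -0.01 ± 0.08 (SE). Rpl39l, a paralog known from the testis, had 2 reads in the 15 libraries, as recovered from its mean. By the reading taken here 1 was in a fasted control and 1 in a refed control liver, and by the other reading the second was in a fasted knockout liver. Its parent Rpl39 was listed in the authors' deposited table with 490.2 normalized counts on average and a log2 change of 0.08 ± 0.12 (SE).

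Other genes of the ribosome pathway were read from lists, each beside the 2.19% of all tested genes that were called. In the authors' deposited table (DESeq2 Wald test, Benjamini-Hochberg), 0 were called of 24 TOP genes outside the ribosome, 6 hosts of small nucleolar RNAs, 15 genes of RNA polymerase I, 40 of ribosome assembly, 9 of ribosomal protein chaperones, 22 of mTOR and MYC regulators and 23 other translation factors. Without adjustment, p was under 0.05 for 1, 0, 1, 0, 1, 1 and 3 of them in that order, beside 11.4% of all tested genes. Their medians on the log2 scale were 0.01, 0.02, 0.06, 0.06, 0.08, 0.06 and 0.06 in the authors' deposited table. In the same order, 13 of 24, 4 of 6, 11 of 15, 29 of 40, 7 of 9, 15 of 22 and 20 of 23 estimates were above 0, beside 51.9% of all tested genes.

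A few genes outside the members were named for their roles. Myc, a regulator of ribosome synthesis, was listed in the authors' deposited table at a log2 change of 0.40 ± 0.14 (SE), and its adjusted p in their DESeq2 Wald test was 0.127. Larp1, the TOP-binding repressor, stood in the authors' deposited table at a log2 change of 0.09 ± 0.07 (SE). Rack1, a protein of the small subunit outside the rule, and Fau were listed in the authors' deposited table at log2 changes of 0.05 ± 0.06 and -0.02 ± 0.08 (SE). None of these was called.

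The mitochondrial ribosome, which makes the few proteins encoded in mitochondrial DNA, has its own set of nuclear genes, of which 77 were tested. The authors' deposited table (DESeq2 Wald test, Benjamini-Hochberg) had 1 that rose and 0 that fell, which is no more than the 2.19% called over all tested genes. The median log2 change in the authors' deposited table was 0.04, and 59 of 77 estimates were above 0, beside 51.9% of all tested genes. The gene that rose was Mrps36, by 0.64 ± 0.19 (SE) on the log2 scale with an adjusted p of 0.0376 by that test in the authors' deposited table, at a mean of 99.9 normalized counts. Its product is also known as a component of the 2-oxoglutarate dehydrogenase complex. Whether the cytosolic and mitochondrial sets differ was not tested.

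**Figure D5:**
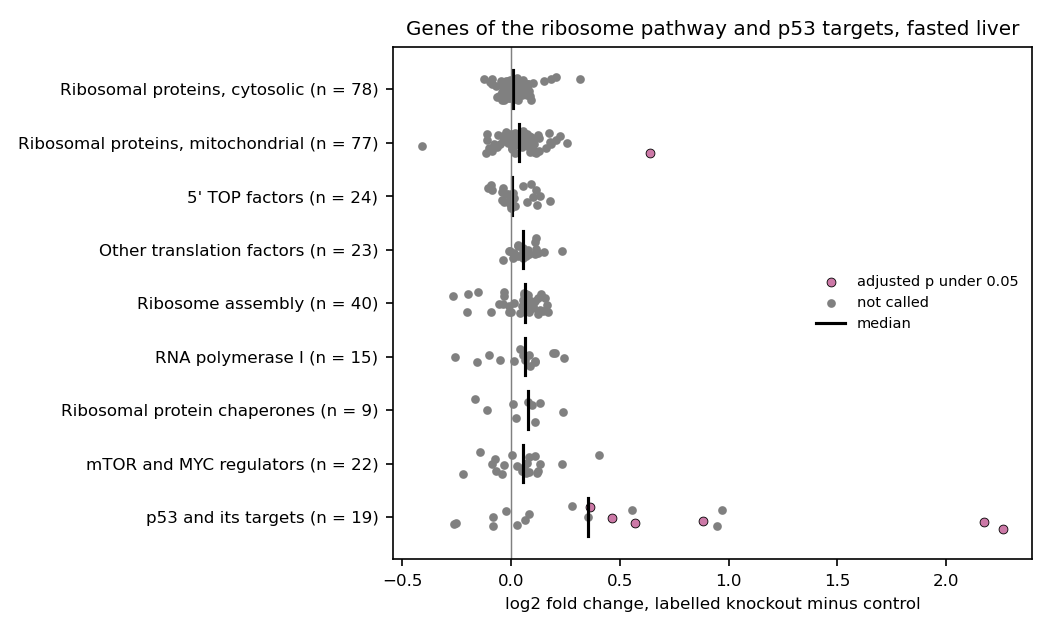
Log2 fold change (labelled knockout minus control, fasted livers) of tested genes in 9 lists, from the authors' deposited table. Each point is a gene, spread vertically for display, coloured where the adjusted p was under 0.05, and black lines are medians. Cytosolic ribosomal proteins and TOP genes centre at 0.01, 1 mitochondrial gene is called, and the p53 list has 6 called genes and a median of 0.35. The p53 list was chosen with its result in these data known.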

How the data were processed

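Per the labels' protocols, TRIzol and RNeasy were used for RNA and a stranded KAPA kit for libraries. The submitters' processing notes name FastQC, STAR 2.6.0c, DESeq2 and mm10. The sources used here do not give the read counter, its strand setting or the annotation. Per the file headers, the deposited mean is a signal: counts scaled by size factors, as a mean over libraries. The authors' log2 fold change and standard error are on the log2 scale, per the file headers. The deposited Wald score is their ratio to within 3.6e-14. The deposited p-values are those of this test, and the deposited adjusted p matched a Benjamini-Hochberg adjustment of the 13335 tested genes to within 7.0e-15. Values scaled by size factors show changes relative to other genes, so a change shared by all genes would not appear.

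The compared groups are not named in the header. Genes with a single read were therefore fitted with a negative binomial model under 168 readings of the table. The deposited estimates were matched by 2 readings, with a largest difference of 4.30e-10, against 4.37e-05 for the closest other. The reading by genotype was taken from the table's name. Of 28 genes of the response to feeding, picked after values were seen, 0 were called higher and 4 lower (Acss2, Fasn, Srebf1, Thrsp). Size factors ran from 0.912 to 1.11, and the means of all genes summed to 1.80e+07.

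A gene was called at a deposited adjusted p under 0.05. The planned reading of the deposited test was used, and no model was refitted to the members. The Benjamini-Hochberg code was tested on simulated data. Of all table identifiers 24944 matched GENCODE vM21 (GRCm38), with 81 of 81 members, and BLAST 2.17.0, Python 3.11.15 and pandas 2.3.3 were used. For levels per kilobase the shortest transcript with complete ends and the best APPRIS rank was taken, a rule settled after lengths were seen. The rule for named members took those called, the 5 highest and 5 lowest by Wald statistic, the 5 of highest mean, untested members, paralog pairs and Rpl5, Rpl11, Rps6, Rpsa and the P stalk. For other lists it took up to 4 called genes by smallest p. Members and lists were chosen with earlier results of these data known. The bounds of 1.2-fold and 1.25-fold, the range of 500 to 9000, the limits on pseudogene copies, the run of 8 pyrimidines, and the members named for wide errors, low levels or overlaps were chosen after values were seen, as were the exit tunnel genes, Rps27a, Cdkn1a, Rpl29, Rps10 and Rps20. Values of 1 member are in the counts and medians and are not reported here singly. The deposited p-values weigh each estimate against its standard error, which rests on these livers. They do not cover a cage, litter or day that would coincide with a group.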

Additional observations from a re-analysis of the deposited data

How the results depend on the processing

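The number of ribosomal protein genes called higher was 0 and became 1, Rps27l in each case, when p was adjusted over genes of mean 100 or more, when the adjusted threshold was 0.1 and when an unadjusted p under 0.05 was used. It stayed 0 when p was adjusted over every gene that had one, over genes of mean 10 or more and over protein coding genes. The number called lower was 0 under all 6 of these settings. The median log2 fold change lay between 0.0027 and 0.0172 under all alternatives, including one without Rpl26, Rpl34, Rplp0 and Rplp1 that was chosen after seeing the data (0.01). For 31 named members 153 settings were tried, and 150 kept direction and side of the threshold. Rps27l passed in 1 (adjusted p 0.0461, range 0.0461 to 0.102). Another 2 changed sign when the median of all tested genes was subtracted, Rps6 to -0.0005 and Rpl8 to -0.0019, by less than their standard errors. Adjusting p again leaves an estimate as it is, so only the subtraction could change a direction. Only Rps27l had an unadjusted p under 0.05 (DESeq2 Wald test), so no other member could pass. The count of 150 was therefore largely fixed in advance. No paired analysis was possible because values of single livers are not in the table analysed, and leaving out each liver in turn was not run for want of them. The depth per liver is not known beyond the size factors, and the lowest mean with an adjusted p was 8.201 normalized counts, which left out Rpl24, Rpl3l and Rpl39l. The reading of the compared groups decides every direction, and the fit to genes with a single read could not settle it. The 28 feeding genes, of which 0 were called higher and 4 lower, were picked after values were seen. They were not used to choose the reading.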

Other observations

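Ribosomal protein genes also carry small nucleolar RNAs, which guide the modification of ribosomal RNA, within their introns. In the GENCODE vM21 annotation 30 of the 81 members (37.04%) held 58 of them, beside 219 of 11922 tested protein coding genes (1.84%). Rpl4 held 5 and Rpl13a held 4. The members lay on 19 chromosomes. Of the 60 most abundant pseudogene copies of members 40 were tested, and 0 of these were called by the DESeq2 Wald test in the authors' deposited table, beside 2.19% of all tested genes. An unadjusted p under 0.05 was given to 1 of the 40, beside 11.4% of all tested genes.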
